A study of Mus musculus with 8 samples.

Results

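The microRNAs (miRNAs) described here are those of 5 families best known from neurons and the nervous system, named mmu-miR-7a, mmu-miR-7b, mmu-miR-9, mmu-miR-124, mmu-miR-128 and mmu-miR-184. They were chosen by name: every mature miRNA in the deposited table with one of these names, with or without a copy number and an arm, was taken, which gave 11 of 1099. Small RNA was sequenced from KH2-DGCR8 mouse embryonic stem cells during embryoid body (EB) differentiation, an aggregate culture that takes stem cells out of pluripotency. Sequencing covered cells with doxycycline (Dox) at days 0, 1, 2 and 4 and without Dox on the same days. Each of the 8 conditions had 1 library, so no value has a replicate of its own condition. All 8 libraries shared the KH2-DGCR8 genotype, the cells without Dox included. KH2 is a stem cell line built for transgenes that Dox switches on, and DGCR8 is the partner of DROSHA in the Microprocessor, the complex that cuts primary miRNA transcripts in the nucleus. The comparison of interest to the study was how miRNA production responds to extra DGCR8. The sources used here do not say how long the cells had Dox or whether the line is 1 clone.

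A miRNA hairpin gives 2 mature arms, of which the guide arm is usually the more abundant and is loaded into an Argonaute protein, while the other arm (the passenger) is mostly degraded. A guide finds its targets mainly through its seed, the bases from position 2 to position 8. In the nervous system miR-124 is the most abundant neuronal miRNA and represses non-neuronal genes, miR-9 acts in neural progenitors and their differentiation, and miR-128 limits neuronal excitability. miR-7 is known from neuroendocrine cells, pancreatic islets and the brain, and miR-184 from the eye, epithelia and neural stem cells. Several of these names are therefore not restricted to neurons.

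The guide sequences are shown first because they set which of the measured names can be told apart. They are RefSeq sequences (GRCm38.p6), given 5′ to 3′ with the seed in capitals; 9 of the 11 members were matched to a sequence.
miR-7a-5p: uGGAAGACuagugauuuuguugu
miR-7b-5p: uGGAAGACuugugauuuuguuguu
miR-9-5p: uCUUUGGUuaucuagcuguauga
miR-128-3p: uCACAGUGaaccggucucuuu
miR-184-3p: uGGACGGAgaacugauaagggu

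The guides of miR-7a and miR-7b share a seed. Counted from 1 at the 5′ end, they differ by the substitution A10U (miR-7a-5p has A) and by 1 extra base at the 3′ end of miR-7b-5p. Among the 926 listed miRNAs with a sequence, no other carries the seed of any guide shown. miR-7a-5p can come from 2 hairpins with the same guide. Mir7-1 lies at chr13:58392779-58392886 on the minus strand, in an intron of Hnrnpk, which encodes a ubiquitous RNA-binding protein, and Mir7-2 lies at chr7:78888277-78888373 on the plus strand, outside annotated genes. Mir7b lies at chr17:56242988-56243098 on the plus strand, outside annotated genes. The 3p arms, unlike the guides, differ between the 3 hairpins. They are shown with the positions that differ among them in capitals, 6 of 22.
miR-7a-1-3p: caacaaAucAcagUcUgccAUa
miR-7a-2-3p: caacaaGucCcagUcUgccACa
miR-7b-3p: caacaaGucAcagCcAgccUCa

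Of the other hairpins with a matched sequence, most lie in introns. miR-124 had no matched sequence, so no locus is given for it. miR-128-3p comes from Mir128-1 (chr1:128202361-128202430, plus strand), in an intron of R3hdm1, and from Mir128-2 (chr9:112118636-112118711, minus strand), in an intron of Arpp21. miR-9-5p comes from Mir9-1 (chr3:88215598-88215686), in an intron of the long noncoding RNA Gm3764, from Mir9-2 (chr13:83738814-83738885), in an exon of the long noncoding RNA C130071C03Rik, and from Mir9-3 (chr7:79505264-79505353), in an intron of Mir9-3hg, all on the plus strand. Their guides are the same in all copies, so the copies of miR-9 and miR-128 could not be separated by the guide. Mir184 (chr9:89802260-89802328, minus strand) lies outside annotated genes. Its hairpin is shown because its 3p arm was the second most abundant miRNA by mean; both arms are in capitals, the 3p arm last.
Mir184 hairpin: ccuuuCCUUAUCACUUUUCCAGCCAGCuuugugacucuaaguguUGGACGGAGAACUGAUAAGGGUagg

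Levels are the deposited scores, read as RPM (miRNA reads scaled to a common library total), rounded to whole numbers. The libraries rested on 362483 to 541342 implied reads, so that 1 read was worth between 1.847 and 2.759 RPM. The cells carried the miRNAs that define mouse embryonic stem cells: the 15 miRNAs of the miR-290 cluster made up 40.5%, 39.4%, 37.4% and 22.9% of the libraries with Dox at days 0, 1, 2 and 4, and 46.1%, 41.5%, 36.1% and 16.3% of those without Dox. The epiblast list (4 of 4 names listed, the miR-302 cluster) summed to 290 to 2044 RPM with Dox and 335 to 29011 RPM without Dox, with miR-367-3p at 0 in 2 libraries. The fibroblast list, for feeder cells (4 of 5 names listed), summed to 2061 to 2361 RPM with Dox and 1415 to 3254 RPM without Dox. The blood list (2 of 3 listed) summed to 8 to 46 RPM with Dox and 20 to 59 RPM without Dox, and its defining miR-451a was at 0 in 6 libraries.

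The 5 families were already present in stem cells at day 0, at very unequal levels. Together the 11 members took 11.8%, 8.12%, 7.77% and 7.64% of the libraries with Dox at days 0, 1, 2 and 4, and 9.73%, 9.09%, 9.95% and 8.71% of those without Dox. miR-184-3p alone took 4.51% to 6.76%, and the miR-7 family 0.891% to 5.14%. The miR-7 share and the share of all members add miR-7a-5p and miR-7b-5p, which are read below as 1 signal. Reads counted for both names would enter these shares more than once, and miR-7a-5p alone stood at 4566 to 26526 RPM. The miR-9 family took 0.29% to 0.734%, the miR-128 family 0.0199% to 0.0703% and the miR-124 family, the one most specific to neurons, only 0.0029% to 0.0214%. Of the members, 5 had a mean under 100 RPM. In order of their means, miR-184-3p ranked 2nd of all miRNAs, miR-7a-5p 17th, miR-7b-5p 20th, miR-9-5p 42nd, miR-128-3p 145th and miR-124-3p 262nd. The lowest miR-184-3p value lay above the highest miR-7a-5p value, and the lowest miR-128-3p value lay below the highest miR-124-3p value, so that last pair of neighbours overlapped, although miR-128-3p was above miR-124-3p in each of the 8 libraries. miR-9-5p and the miR-7 guides also overlapped, because miR-9-5p was below them at days 0, 1 and 2 and above them at day 4 in both treatments.

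**Figure D1:**
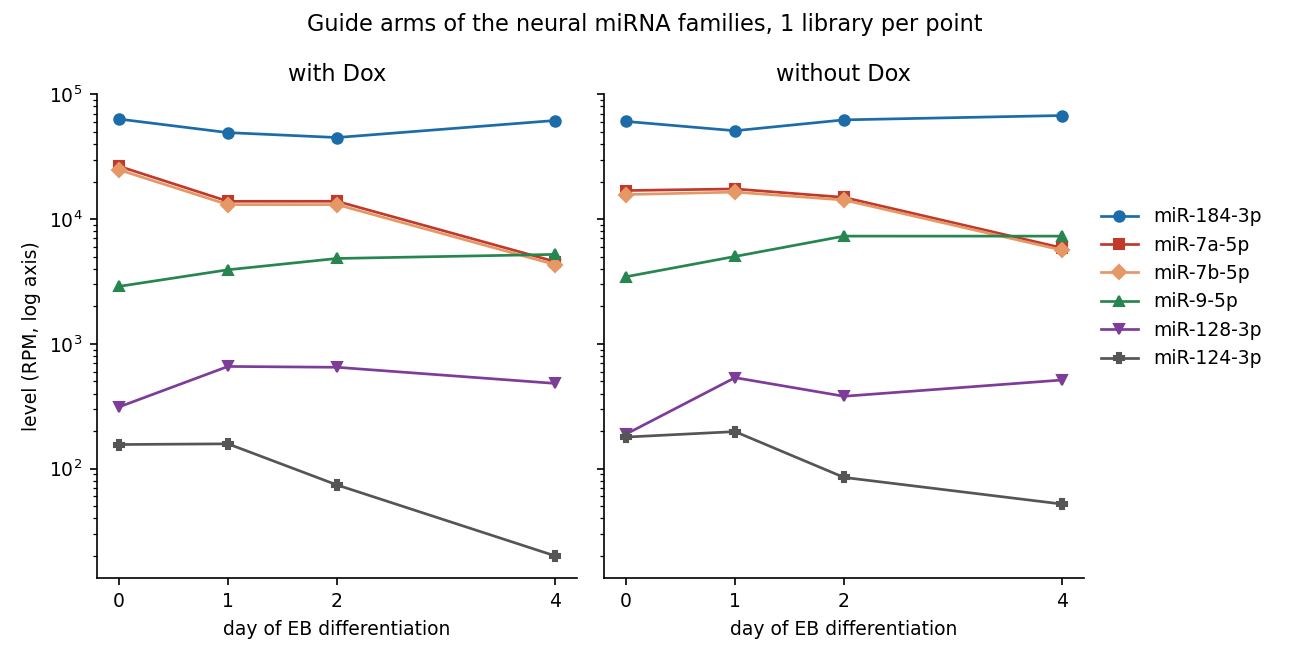
Levels of the 6 guide arms (RPM, log axis) against day of EB differentiation, with Dox on the left and without Dox on the right; each point is 1 library. miR-184-3p stays between 45057 and 67642 RPM, miR-7a-5p and miR-7b-5p run together and cross miR-9-5p by day 4, and miR-124-3p is lowest in every library.

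The miR-7 family lost the most RPM between day 0 and day 4. miR-7a-5p stood at 26526, 13882, 13892 and 4566 RPM with Dox at days 0, 1, 2 and 4, and at 16938, 17450, 14934 and 5876 RPM without Dox. miR-7b-5p stood at 24826, 13060, 13066 and 4321 RPM with Dox and at 15731, 16459, 14222 and 5636 RPM without Dox. In each treatment the day 4 library was the lowest, and the day 4 values of both treatments lay below all others. The level of miR-7b-5p was 0.929 to 0.959 times that of miR-7a-5p within every library, a difference of 240 to 1700 RPM. The sources used here do not say how a read that matches several miRNAs was counted, so the guides of this pair, which are nearly identical, are read as 1 signal, and a gain or loss of either copy alone cannot be seen.

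Day comparisons used limma's moderated test on log2(RPM + 1) with treatment as a covariate and Benjamini-Hochberg adjustment over the 839 miRNAs that had at least 1 RPM in at least 2 libraries, at an adjusted p of 0.05; 10 of the 11 members passed that filter. All 3 day comparisons share the day 0 libraries. The median log2 change of all tested miRNAs was above 0 at each day, at 0.37, 0.48 and 0.56 for days 1, 2 and 4 against day 0, and median-of-ratios scaling brought it to 0.02, 0.03 and 0.01. Changes of the guides with day are therefore also given under that scaling, and the larger ones relative to that median.

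At day 4 against day 0, 3 of 10 members were lower, where 3.81% of all tested miRNAs were, and the 2 miR-7 guides among them are 1 signal. Of all 839, 184 were higher and 32 lower, and with median-of-ratios scaling 101 were higher and 61 lower, where the same 3 members were lower. miR-7a-5p changed by −2.03 on the log2 scale (SE 0.24, adjusted p = 1.82e-15, limma) and miR-7b-5p by −2.00 (SE 0.24, adjusted p = 5.93e-15, limma). Relative to the median of all miRNAs the change of miR-7a-5p was −2.59, and under median-of-ratios scaling it was −2.63 (adjusted p = 1.82e-24, limma). The ratio of day 4 to day 0 was 0.172 with Dox (95% counting interval 0.165 to 0.18) and 0.347 without Dox (0.33 to 0.364). These intervals cover counting error only and, with 1 library per condition, hold no biological spread. They may be too narrow even for counting error, since sequenced PCR copies are not independent molecules. Leaving out any library left the log2 change between −2.49 and −1.58, past the threshold each time. Without limma's mean-variance trend the change was the same with an adjusted p of 0.0556 in limma, and 0 of 10 members passed. Because these are bulk samples, fewer cells of a type and less RNA per cell cannot be told apart.

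On the days between, the treatments ran apart by more than counting error, and the test of that difference stands with the Dox results. With Dox, miR-7a-5p at day 1 was 0.523 times its day 0 level (interval 0.508 to 0.54), whereas without Dox the ratio was 1.03 (0.997 to 1.06). Day 2 gave 0.524 with Dox (0.507 to 0.54) and 0.882 without Dox (0.852 to 0.912). At day 1 against day 0 the change over both treatments was −0.45 (SE 0.24, adjusted p = 0.267, limma), and without the day 0 library with Dox it was 0.01. At day 2 it was −0.56 (SE 0.24, adjusted p = 0.0902, limma), and −1.03 with median-of-ratios scaling (adjusted p = 0.000601, limma).

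miR-124, the neuronal miRNA, was rare and also lower at day 4. miR-124-3p stood at 156, 158, 74 and 20 RPM with Dox at days 0, 1, 2 and 4, and at 179, 198, 85 and 52 RPM without Dox. The order of days was the same in both treatments, with days 0 and 1 high, day 2 lower and day 4 lowest, and the 2 day 4 values lay below all others. The log2 change at day 4 was −2.33 (SE 0.45, adjusted p = 2.66e-06, limma), −2.90 relative to the median of all miRNAs and −2.92 with median-of-ratios scaling (adjusted p = 1.73e-09, limma). The day 4 to day 0 ratio was 0.13 with Dox (counting interval 0.0617 to 0.251), from 11 reads against 57, and 0.292 without Dox (0.167 to 0.489), from 19 against 74. It passed without any 1 library, at −2.88 to −1.79, and missed the threshold without the trend (adjusted p = 0.0525, limma). At day 2 the change was −1.07 (SE 0.45, adjusted p = 0.0831, limma), and −1.54 with median-of-ratios scaling (adjusted p = 0.00718, limma).

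At day 4, 2 of 10 members were higher, miR-9-5p and miR-128-3p, where 21.9% of all tested miRNAs were, so that the members' share was near the background. miR-9-5p, which acts in neural progenitors, stood at 2889, 3924, 4835 and 5211 RPM with Dox at days 0, 1, 2 and 4, and at 3452, 5018, 7304 and 7302 RPM without Dox. Each later day lay above day 0 in its own treatment, and days 2 and 4 were alike without Dox. The log2 change was 0.97 (SE 0.26, adjusted p = 0.00127, limma) at day 4 and 0.91 (SE 0.26, adjusted p = 0.00459, limma) at day 2. Relative to the median of all miRNAs these were 0.40 and 0.43, and with median-of-ratios scaling 0.37 (adjusted p = 0.36, limma) and 0.44 (adjusted p = 0.289, limma), neither past the threshold. Without the day 0 library without Dox, the day 4 change was 0.85 (adjusted p = 0.0506, limma). The day 2 call was lost without that library (0.80, adjusted p = 0.12, limma), without the day 2 library with Dox (1.03, adjusted p = 0.0675, limma) and without the day 2 library without Dox (0.80, adjusted p = 0.241, limma).

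miR-128-3p, a regulator of neuronal excitability, stood at 312, 659, 649 and 482 RPM with Dox at days 0, 1, 2 and 4, and at 189, 536, 380 and 513 RPM without Dox. Both day 0 libraries lay below all later ones. At day 1 against day 0, 2 of 10 members were higher, where 7.03% of all tested miRNAs were, and 0 were lower, where 1.07% were. These were miR-128-3p, by 1.29 (SE 0.33, adjusted p = 0.00286, limma), and its passenger miR-128-1-5p, by 2.56 (SE 0.81, adjusted p = 0.0237, limma). With median-of-ratios scaling neither passed (0.91, adjusted p = 0.0696, and 2.24, adjusted p = 0.0647, limma), and the 3 members then called were lower: miR-184-3p by −0.68, miR-7a-5p by −0.82 and miR-7b-5p by −0.81. Over all 839 miRNAs the day 1 calls were 59 higher and 9 lower, and 35 higher and 34 lower under that scaling. The later changes of miR-128-3p were 1.03 (SE 0.33, adjusted p = 0.0164, limma) at day 2 and 1.03 (SE 0.33, adjusted p = 0.0102, limma) at day 4, and with median-of-ratios scaling they were 0.56 and 0.43, neither past the threshold. The day 4 call was lost without the day 0 library without Dox (0.83, adjusted p = 0.252, limma) and without the day 4 library without Dox (0.69, adjusted p = 0.194, limma). The day 2 call was lost without any 1 of the day 0 and day 2 libraries (0.80 to 1.26), and the day 1 call without either day 1 library or the day 0 library without Dox (1.09 to 1.37).

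At day 2 against day 0, 3 of 10 members were higher (miR-9-5p, miR-128-3p and miR-128-1-5p), where 15.3% of all tested miRNAs were, and 0 were lower, where 2.03% were. With median-of-ratios scaling 0 members were higher and 5 lower, as 51 and 51 of all miRNAs were, against 128 and 17 on the RPM scale. The median member changed by 0.03, −0.10 and −0.44 at days 1, 2 and 4, below the median of all miRNAs at each day.

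miR-184-3p was the most abundant member and, on the RPM scale, the steadiest. It stood at 63345, 49336, 45057 and 61695 RPM with Dox at days 0, 1, 2 and 4, and at 60659, 51077, 62431 and 67642 RPM without Dox. The highest of its 8 values was 1.5 times the lowest, where the same ratio was 2.53 for miR-9-5p, 5.81 for miR-7a-5p and 9.9 for miR-124-3p. With Dox the days 1 and 2 lay below days 0 and 4, and without Dox only day 1 lay below day 0. With median-of-ratios scaling miR-184-3p was called lower at day 1 (−0.68, adjusted p = 0.0269, limma) and at day 2 (−0.70, adjusted p = 0.0149, limma). The change at day 4 was 0.06 (SE 0.21, adjusted p = 0.889, limma), and it was −0.54 with median-of-ratios scaling (adjusted p = 0.0621, limma) and −0.44 when values were scaled to the reads outside the miR-290 cluster (adjusted p = 0.137, limma), so that its direction depended on the scaling.

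**Figure D2:**
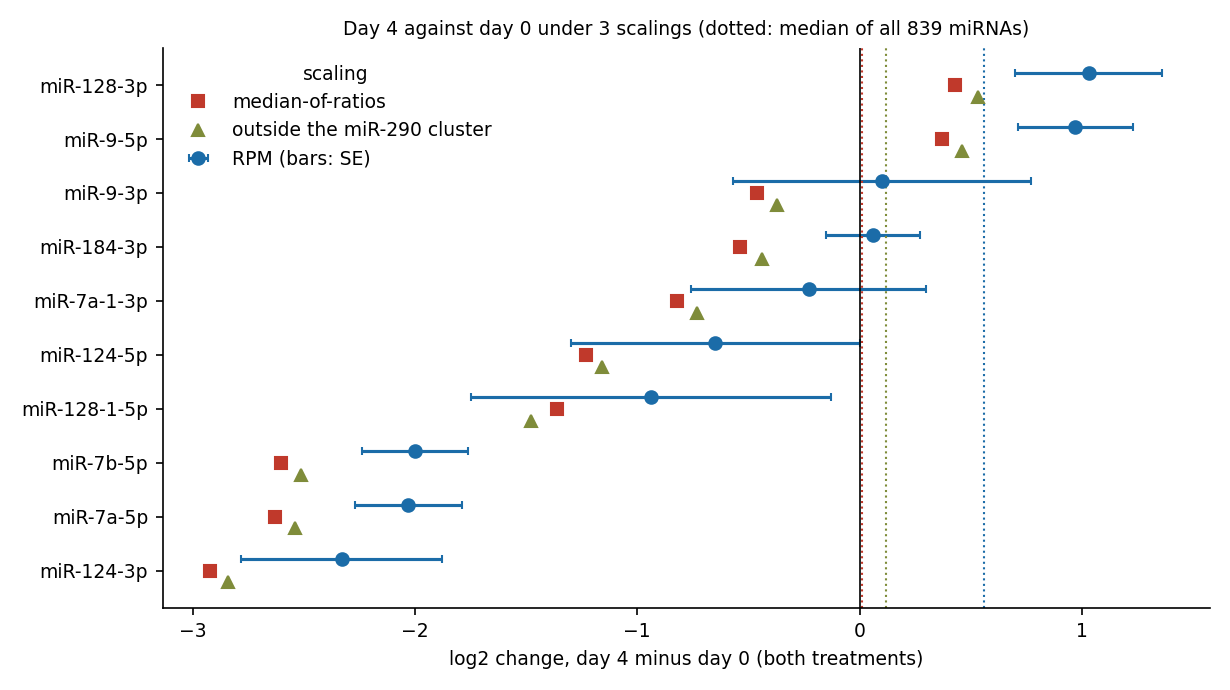
Log2 change at day 4 against day 0, over both treatments, of the 10 tested members under 3 scalings: RPM (circles, with SE bars), median-of-ratios (squares) and scaling to reads outside the miR-290 cluster (triangles). Dotted lines mark the median of all 839 miRNAs under each; miR-7a-5p, miR-7b-5p and miR-124-3p lie far below 0 under all 3, whereas miR-184-3p is at 0.06, −0.54 and −0.44.

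The miR-290 cluster made up less of the day 4 libraries than of the day 0 ones in both treatments, and the epiblast list summed to 2044 RPM at day 4 with Dox, against 29011 RPM at day 4 without Dox. The part of these shifts in the members' changes was not tested. Scaling to the reads outside the miR-290 cluster changes only the total that values are set against. With it miR-7a-5p changed by −2.54 and miR-124-3p by −2.84, both past the threshold. On that scale miR-9-5p (0.46, adjusted p = 0.203, limma) and miR-128-3p (0.53, adjusted p = 0.286, limma) were not past it.

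The comparison of Dox with no Dox called 0 of 10 members, where 1.91% of all tested miRNAs passed (16 of 839, 11 higher and 5 lower). All libraries shared the KH2-DGCR8 genotype, so an effect of Dox itself cannot be told apart from one of added DGCR8. Levels are relative to each library's total, so a rise or fall common to all miRNAs would not be seen. The fit had treatment and day as terms, so that each day served as a pair. At an unadjusted p under 0.05, 1 member and 88 of all miRNAs passed. The median change of the members was −0.10, and that of all miRNAs 0.03. limma-voom on the implied reads also called 0 members, and 20 of all miRNAs.

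miR-9-5p came closest among the guides. Its level with Dox was 0.837, 0.782, 0.662 and 0.714 times that without Dox at days 0, 1, 2 and 4, lower on 4 of 4 days, and the highest upper bound of the 4 counting intervals was 0.907, at day 0. The log2 change was −0.42 (SE 0.18, unadjusted p = 0.0195, adjusted p = 0.309, limma), and adjusted p ran from 0.241 to 1 over the alternatives. Over the 4 days the mean log2 ratio was −0.42 ± 0.15 (SD, n = 4 days), with an exact sign-flip permutation p of 0.125, which is the smallest that 4 days allow (0.375 adjusted over the 6 guides).

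miR-128-3p was above its level without Dox on most days. Its ratio of Dox to no Dox was 1.65, 1.23 and 1.71 at days 0, 1 and 2, with counting intervals above 1, and 0.94 at day 4 (0.776 to 1.14). The log2 change was 0.42 (SE 0.23, adjusted p = 0.551, limma), higher on 3 of 4 days. For miR-124-3p the ratio was 0.869, 0.8, 0.872 and 0.388, with the interval below 1 only at day 4 (0.167 to 0.857). It was lower on 4 of 4 days, and its change was −0.51 (SE 0.32, adjusted p = 0.626, limma).

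The miR-7 guides were above their level without Dox at day 0 only. miR-7a-5p with Dox was 1.57 times its level without Dox at day 0 (interval 1.52 to 1.62), and 0.796, 0.93 and 0.777 times at days 1, 2 and 4, each interval below 1. Its mean log2 ratio was −0.04 ± 0.47 (SD, n = 4 days; exact permutation p = 0.875), and −0.27 without the day 0 pair. miR-184-3p had ratios of 1.04, 0.966, 0.722 and 0.912 and a change of −0.15 (SE 0.15, adjusted p = 0.836, limma), with day 2 the farthest from 1.

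**Figure D3:**
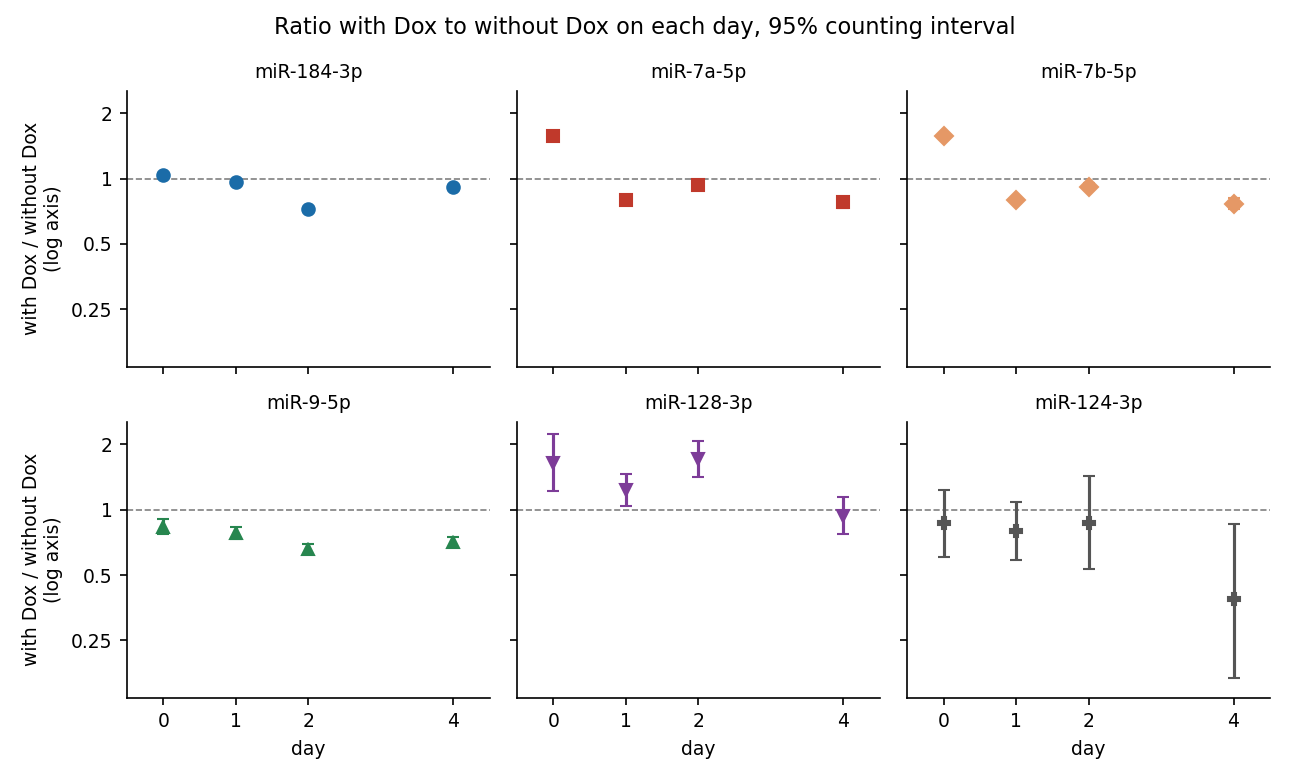
Ratio of the level with Dox to that without Dox (log axis) on each day for the 6 guide arms; bars are 95% counting intervals and the dashed line marks a ratio of 1. miR-9-5p lies below 1 on 4 of 4 days, miR-7a-5p and miR-7b-5p lie above 1 at day 0 and below it at days 1, 2 and 4, and miR-128-3p lies above 1 at days 0, 1 and 2.

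A further term, treatment multiplied by day, asked whether the Dox ratio shifted over time, and its slope is a log2 change per day. It called 0 of 10 members, where 0.954% of all tested miRNAs passed (8 of 839). For miR-7a-5p the slope was −0.20 (SE 0.09, unadjusted p = 0.0225, adjusted p = 0.369, limma), and without the day 0 pair it was −0.03. The lowest adjusted p among the members belonged to the passenger miR-124-5p, at −0.96 per day (SE 0.29, adjusted p = 0.0923, limma). It passed in 1 of 13 alternatives, the one restricted to miRNAs averaging at least 10 RPM (adjusted p = 0.0492, limma). Over the 13 alternatives its adjusted p reached 0.774 (limma). miR-128-1-5p followed, at 1.16 per day (SE 0.37, adjusted p = 0.103, limma). Both slopes were set by few reads, and miR-124-5p had 3 and 5 reads at days 2 and 4 with Dox. At an unadjusted p under 0.05, 4 members and 95 of all miRNAs passed.

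The less abundant arms of miR-7 differ between its hairpins. miR-7a-1-3p, from the hairpin in Hnrnpk, stood at 41, 60, 64 and 28 RPM with Dox at days 0, 1, 2 and 4, and at 39, 76, 26 and 41 RPM without Dox. miR-7a-2-3p, from the intergenic hairpin, was listed at 2 RPM, which is 1 read, in the day 1 library with Dox and at 0 in the other 7. Over all libraries the implied reads were 167 for miR-7a-1-3p and 1 for miR-7a-2-3p. These arms are separated by 3 substitutions, A7G, A10C and U21C, with the base of miR-7a-1-3p first and positions counted from 1 at the 5′ end. The 3p arm of Mir7b, miR-7b-3p, was not among the listed miRNAs, so no 3p arm here shows whether the miR-7b-5p reads came from Mir7b. miR-7a-1-3p was not called at day 4 (−0.23, SE 0.53, adjusted p = 0.821, limma), and its difference from the guide was not tested. The guide was 143 to 647 times its passenger, with the lowest ratios at day 4 in both treatments, at 163 with Dox and 143 without Dox.

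The passengers of miR-9 and miR-128 were close to the counting limit, where 3 reads are worth 5.54 to 8.28 RPM. miR-9-3p stood at 8, 25, 21 and 18 RPM with Dox at days 0, 1, 2 and 4, and at 41, 13, 36 and 22 RPM without Dox, with no common order of days. miR-128-1-5p, which only Mir128-1 in R3hdm1 gives, stood at 3, 44, 23 and 11 RPM with Dox and at 10, 33, 36 and 0 RPM without Dox. In both treatments days 1 and 2 were its highest, as they were for miR-128-3p with Dox. Its calls at days 1 and 2 rest on 1 read with Dox and 4 reads without Dox at day 0. At day 2 it was higher by 2.17 (SE 0.81, adjusted p = 0.0449, limma), and by 0.88 without the day 0 library with Dox (adjusted p = 0.708, limma); at day 1 it was 1.27 without that library (adjusted p = 0.613, limma).

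The arms of miR-124 were the closest in level of any family. The passenger miR-124-5p stood at 49, 31, 6 and 9 RPM with Dox at days 0, 1, 2 and 4, and at 32, 16, 24 and 66 RPM without Dox. The guide to passenger ratio was 3.18, 5.1, 12.3 and 2.22 with Dox, and 5.59, 12.4, 3.54 and 0.788 without Dox, so that in the day 4 library without Dox the 5p arm had more reads (24) than the 3p arm (19). In the other families the named guide exceeded its passenger at least 10.6 times in every library where the passenger was above 0. No arm ratio was shown to differ between treatments. Over 4 days the mean difference in log2 ratio, Dox minus no Dox, was −0.15 ± 0.85 for miR-7a, 0.17 ± 1.34 for miR-9, 0.25 ± 1.48 for miR-124 and −0.05 ± 2.59 for miR-128 (SD, n = 4 days). The miR-128 value rests on day 4, where the passenger was at 0 without Dox and the pseudocount sets the ratio; without that day the mean was 1.16. Exact sign-flip permutation p-values for these 4 ratios were 0.75 to 1, or 1 after Benjamini-Hochberg adjustment, with 0.125 the smallest possible.

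**Figure D4:**
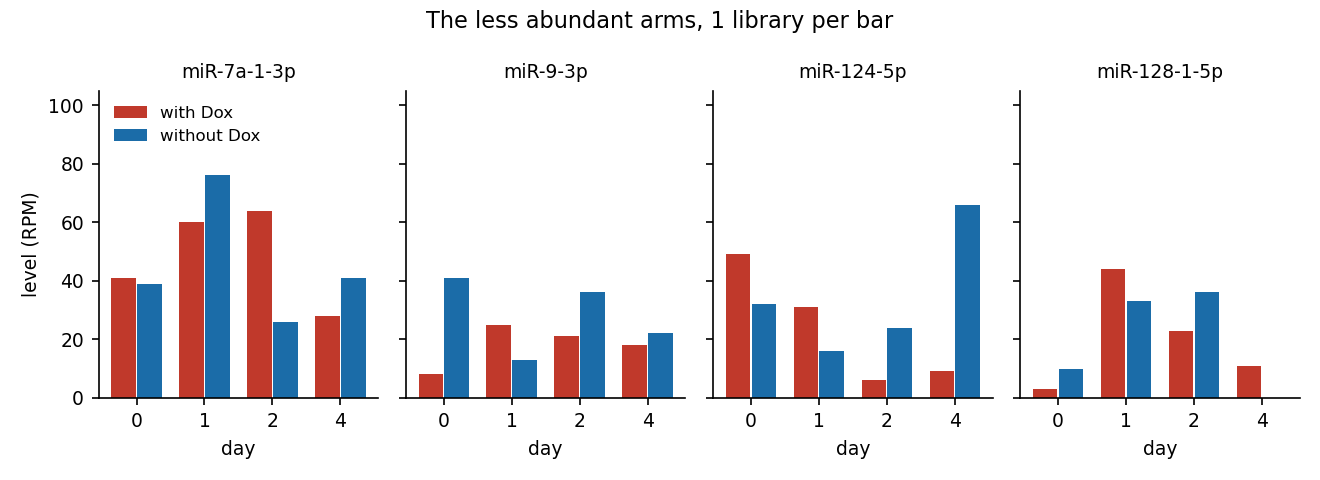
Levels (RPM, linear axis from 0) of the 4 less abundant arms by day, with Dox (red, left bar) and without Dox (blue, right bar); each bar is 1 library. miR-124-5p is highest at day 4 without Dox (66 RPM) and at 9 RPM with Dox on that day.

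Each family's leading guide was also set beside the miRNAs whose levels ran most like it, by Pearson's r on log2(RPM + 1) over the same 8 libraries, out of the 496 to 498 miRNAs that averaged at least 10 RPM. Members of the guide's own family were left out, so that miR-7b-5p, which runs with miR-7a-5p, does not appear. These are descriptions of points that share libraries, days and depth, and each was picked as the highest of many. Outside its family miR-7a-5p was most like miR-292a-3p, an embryonic stem cell miRNA of the miR-290 cluster (r = 0.94), then miR-181d-5p (0.899) and miR-150-5p (0.896). miR-292a-3p stood at 56684, 49334, 44006 and 22734 RPM with Dox at days 0, 1, 2 and 4, and at 62835, 53807, 43428 and 20462 RPM without Dox, without the day 0 excess with Dox seen for miR-7a-5p. miR-124-3p was most like miR-23b-3p (r = 0.961), miR-181b-5p (0.959) and miR-181d-5p (0.957). miR-9-5p was most like miR-344-3p (0.965), miR-679-5p (0.946) and miR-149-5p (0.926). miR-128-3p was most like miR-504-5p (0.908), let-7j (0.907) and miR-363-5p (0.905), and miR-184-3p was most like miR-362-3p (0.913), miR-132-3p (0.891) and miR-3470a (0.874). Few reads lie behind some of these values. miR-504-5p stood at 0 to 28 RPM and miR-132-3p at 0 to 22 RPM, where 3 reads are worth 5.54 to 8.28 RPM.

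The other miRNAs known for high levels in brain were tested in the same fits. Of 22 names, 21 were listed and 20 tested. At day 4 against day 0, 5 of the 20 were higher, where 21.9% of all tested miRNAs were, and 2 were lower, where 3.81% were. The list's median change was 0.92, and that of all miRNAs 0.56. With median-of-ratios scaling 2 were higher (miR-346-5p and miR-488-3p) and 3 lower, the third name being miR-125b-5p. The 2 that were lower, miR-135b-5p (−0.96, SE 0.29, adjusted p = 0.00538, limma) and miR-135a-5p (−0.94, SE 0.29, adjusted p = 0.00694, limma), were the most abundant of the list and have close sequences, so reads may have been counted for both. With median-of-ratios scaling they changed by −1.56 and −1.54, both past the threshold. Those higher were miR-149-5p (1.62, adjusted p = 0.00239), miR-218-5p (2.18, adjusted p = 0.00789), miR-326-3p (2.51, adjusted p = 0.00623), miR-346-5p and miR-488-3p, the last 2 at 0 RPM in both day 0 libraries, all by limma. With median-of-ratios scaling miR-149-5p (1.03, adjusted p = 0.0881), miR-218-5p (1.60, adjusted p = 0.0785) and miR-326-3p (1.97, adjusted p = 0.0504) did not pass in limma. miR-218-5p, a miRNA of motor neurons, stood at 14, 6, 17 and 54 RPM with Dox at days 0, 1, 2 and 4, and at 15, 11, 17 and 88 RPM without Dox. miR-488-3p stood at 0, 0, 28 and 37 RPM with Dox and at 0, 9, 12 and 80 RPM without Dox. For miR-346-5p the values were 0, 2, 6 and 18 RPM with Dox and 0, 4, 5 and 6 RPM without Dox. Its day 4 value without Dox was under the 8.28 RPM that 3 reads are worth in that library. With both miRNAs at 0 at day 0, the pseudocount sets the size of their changes. miR-326-3p stood at 5, 2, 23 and 15 RPM with Dox at days 0, 1, 2 and 4, and at 5, 9, 76 and 72 RPM without Dox. Its day 0 values lay below what 3 reads are worth there, 8.2 RPM with Dox and 7.27 RPM without Dox.

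At day 2, 4 of the 20 were higher (miR-138-5p, miR-149-5p, miR-326-3p and miR-488-3p), where 15.3% of all tested miRNAs were, and 1 was lower (miR-125b-5p, by −1.98, SE 0.46, adjusted p = 0.000416, limma), where 2.03% were. With median-of-ratios scaling miR-149-5p did not pass (1.12, adjusted p = 0.0839, limma), and 3 were higher and 4 lower. At day 1 limma called 0 of the 20, and 3 as lower with that scaling. miR-330-5p, next by mean in the list, stood at 219, 174, 277 and 192 RPM with Dox and at 148, 156, 142 and 204 RPM without Dox. For Dox against no Dox, and for its change with day, limma called 0 of the 20.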

How the data were processed

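Total RNA was isolated with TRIzol and small RNA libraries came from an NEBNext kit, per the labels' protocols. The deposited scores are whole numbers that sum to 999965 to 1000047 per library, as rounded RPM would. Bowtie and mm10 are named in the submitters' processing notes, and the sources used here do not name the counting tool. The table's 1 row that names no miRNA held no values and was left out.

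In each of the 8 libraries, exactly 1 read total between 100000 and 700000 met the search rule. By that rule all values above 0 had to be the rounding of whole reads (within 0.5 RPM), and those reads had to sum to the total. Ratios of libraries carry exact conditional binomial intervals (95%) on these reads, which cover counting error only. A value of 0 means 0 implied reads, and an expected count of up to about 3 reads remains possible (95%, 1-sided).

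limma 3.58.1 (R 4.3.3; Python 3.11.15) fitted log2(value + 1) with trend and robust options to all 8 libraries, with treatment and day (a factor) as terms, or also their product. Day pairs the treatments by design. Fold changes on this scale understate those of low miRNAs. Spread was shared among miRNAs and, for all but 39 of the 839, in effect taken wholly from the mean-variance trend (all but 3 with the product term). An SE can therefore differ from a miRNA's own spread. For the day changes it was 0.24 for miR-7a-5p, with an own residual SD of 0.33, and 0.26 for miR-9-5p, with 0.10. Nothing in the labels ties libraries to separate cultures. The p-values measure this shared spread between these samples, mostly not each miRNA's own, and it may be technical. limma and the read search were tested on simulated data.

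The members, lists and named miRNAs were chosen with earlier results of these data known. Named were all members, the 3 miRNAs most like each family's leading guide, and those of the other neural list that passed a test or were among its 3 highest by mean. Alternatives changed the pseudocount, filter, scaling, variance options, model terms and libraries, or summed arms and copies per family; arm ratios without 1 day pair, and the other neural list under median-of-ratios scaling, were added after seeing the data. Loci are from RefSeq (GRCm38.p6, the assembly of mm10) and GENCODE M21.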

Additional observations from a re-analysis of the deposited data

Results flagged for a closer look

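Effects that pointed in opposite directions in the compared conditions, each with a counting interval off 1, are listed here; with 1 library per condition the intervals hold no biological spread. The ratio of Dox to no Dox was above 1 at day 0 and below 1 later for miR-7a-5p (1.57 at day 0, 0.777 at day 4) and miR-7b-5p (1.58 and 0.767), and likewise for miR-184-3p (1.04 at day 0, 0.722 at day 2). The test of a change of that ratio with day gave adjusted p = 0.369, 0.332 and 0.79 (limma). The ratio of day 1 to day 0 was 0.526 with Dox and 1.05 without Dox for miR-7b-5p, and that of day 2 to day 0 was 0.711 with Dox and 1.03 without Dox for miR-184-3p. The ratio of day 4 to day 0 was 0.188 with Dox and 2.1 without Dox for miR-124-5p, on 5 against 18 and 24 against 13 reads, and 0.974 with Dox and 1.12 without Dox for miR-184-3p. For miR-124-5p the change of the Dox ratio with day had adjusted p = 0.0923 (limma), and no difference between the treatments at a single day was tested by itself.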

How the results depend on the processing

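The day 4 drop of miR-7a-5p, miR-7b-5p and miR-124-3p kept its direction under every alternative run, and the call under each except the one without the trend; higher calls of miR-9-5p and the miR-128 arms depended on scaling. Without the trend 0 members were called at days 1, 2 and 4, where all miRNAs called were 0, 0 and 3, and 0 for both Dox comparisons. Without the robust option members called were 0 at day 1 and 1 at day 2, and all miRNAs called 13 and 72 there and 0 for both Dox comparisons. All miRNAs called for Dox were 0 without the day term and 1 with day as a linear term, and for the Dox effect with day 5 without a filter. With a mean of at least 10 RPM, members called were 1 for the Dox effect with day and 5 at day 2 (all miRNAs 10 and 149). With a pseudocount of 0.5, 1 was called at day 1 (all miRNAs 66). At day 2 the main fit called 3 members higher and 0 lower (128 and 17 of all miRNAs). Median-of-ratios scaling called 0 higher and 5 lower (51 and 51), and scaling outside the miR-290 cluster 1 and 4 (92 and 27). At day 4 both scalings called 0 members higher and 3 lower, with 101 and 61 of all miRNAs under the first and 107 and 57 under the second.

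Leaving out 1 library gave 0 to 2 members at day 1 (all miRNAs 18 to 106), 0 to 7 at day 2 (14 to 189) and 3 to 6 at day 4 (118 to 217), with 0 members without either day 1 library at day 1 or either day 2 library at day 2, and 3 without the day 0 library without Dox at day 4. Leaving out 1 day pair gave 1 to 11 miRNAs for Dox and 0 to 12 for its change with day, with the lowest count without the day 2 pair (for the change with day, also without the day 4 pair). A lone sample left in a day was taken to vary like the others. Among the 6 guides, uncalled values whose sign turned were miR-184-3p at day 4 (−0.54 with median-of-ratios, −0.44 outside miR-290, −0.08 to 0.20 without 1 library) and in its Dox effect with day (0.01 outside miR-290), miR-124-3p at day 1 (−0.29 with median-of-ratios, −0.05 with arms summed, −0.13 to 0.29 without 1 library), miR-7a-5p and miR-7b-5p at day 1 (−0.90 to 0.01 and −0.90 to 0.04) and for Dox (−0.27 to 0.07 and −0.28 to 0.07), and miR-128-3p in its Dox effect with day (−0.20 to 0.03). Values of less abundant arms that the main fit did not call turned too, among them miR-128-1-5p (−3.01 to 1.14) and miR-124-5p (−1.97 to 0.67) at day 4. For the guides as well, uncalled here means not called in the main fit. Without 1 day pair, an alternative chosen after seeing the data, the arm ratio difference of Dox and no Dox was −0.40 to 0.25 for miR-7a, −0.43 to 0.64 for miR-9, −0.21 to 0.75 for miR-124 and −0.80 to 1.16 for miR-128. The cause was not tested. With each treatment alone, miR-7a-5p at day 4 was −2.54 with Dox and −1.53 without Dox. No paired analysis beyond the day term was possible because each condition has 1 library. Depth limits the arms under 100 RPM, whose values rest on at most 34 reads a library.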
